A study of Pyrus communis with 12 samples.

Results

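Dehydrins, late embryogenesis abundant (LEA) proteins and ABA-induced (ABA/WDS) proteins are families of mostly hydrophilic plant proteins. They accumulate in maturing seeds, and in vegetative tissue when cells lose water or when the level of abscisic acid (ABA) is high, and many of them are thought to keep membranes and other proteins intact while cells dry. The genes described here were taken from the deposited expression table by the name of their protein domain, which had to contain Dehydrin, Late embryogenesis abundant, LEA as a whole word, ABA/WDS or Seed maturation. This rule found 130 of 42760 genes, with 8 domain names: 11 genes with the dehydrin domain, 4 with the ABA/WDS domain, 7 with LEA-5, 5 with LEA-25/LEA-D113, 2 with LEA-18, 2 with LEA-3, 7 with the seed maturation domain and 92 with LEA-14. Expression values did not enter the rule.

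The LEA-14 domain differs from the others. It occurs in the folded, less hydrophilic LEA proteins that have LEA14 of Arabidopsis as their type, and also in the large NDR1/HIN1-like family of membrane proteins, members of which act in the defence of Arabidopsis against pathogens. A gene of this set with the LEA-14 domain is therefore not by its domain alone a gene of desiccation, and the 92 LEA-14 genes and the 38 other genes are described separately.

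The libraries were made from skins of young pear fruits, at 2 and 5 days after full bloom (DAFB), with 3 biological replicates in each of 4 groups. ‘RCF2’ and ‘RCF1’ are skins of ‘Red Clapp Favorite’ (‘RCF’) at 5 and 2 DAFB, and ‘CF2’ and ‘CF1’ are skins of ‘Clapp Favorite’ (‘CF’) at 5 and 2 DAFB. ‘RCF’ is a bud sport of ‘CF’ whose fruits turn from green to red within days of bloom. Fruits of both cultivars were alike in their green color at the first sampling and differed in color at the second. All trees were of the same age, stood in the same orchard and were grafted on Pyrus betulaefolia, skins of many fruits were pooled in each replicate, and a stage is a single sampling date in a single year, so stage and date cannot be told apart. Since ‘RCF’ is a single sport, a difference between cultivars describes this pair of clones.

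Expression was deposited as FPKM, fragments scaled to gene length and to sequencing depth. Groups were compared on log2(FPKM + 1) with limma, and all log2 fold changes are on this scale. The test covered the 25707 genes that reached an FPKM of 1 in 3 or more of the 12 libraries. DEGs, also described as called, had an unadjusted P under 0.05 together with a log2 fold change of 1 or more in either direction. DEGs that also had a Benjamini-Hochberg adjusted P under 0.05 over all tested genes are said to have held after adjustment. Adjusted P values below are limma values of this kind, and errors after ± are standard errors. The ‘CF1’ libraries were the least alike. The correlation of log2(FPKM + 1) between 2 replicates was at least 0.983 in ‘RCF2’, ‘RCF1’ and ‘CF2’ and 0.844 to 0.964 in ‘CF1’, and ‘CF1’ replicate 2 had a correlation of 0.970 to 0.973 with the replicates of ‘RCF1’. The main results that change without a ‘CF1’ library are given with and without it, but not every such change is listed. Of 6 genes with wax and cuticle domains, 5 passed the filter, and their summed FPKM was 150 to 199 in ‘RCF2’, 195 to 204 in ‘RCF1’, 187 to 235 in ‘CF2’ and 189 to 240 in ‘CF1’. Domain families are not specific to a cell type, so these sums check the label of the tissue only loosely.

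Of the 130 genes, 78 passed the filter on low FPKM. The other 52 were close to or at 0, with 22 at 0 in all libraries and a highest single value of 1.94 FPKM. Among the genes near 0 were 5 of the 11 dehydrin genes, both LEA-3 genes and 6 of the 7 seed maturation genes. With all domains pooled, the shares were near those of the whole table, in which 60.1% of genes passed and 18.2% were at 0 in all libraries, against 60% and 16.9% of the set. By domain they differed, and 62 of the 92 LEA-14 genes passed against 16 of the 38 others. Of the 78 that passed, 44 had a mean FPKM of at least 10 over the 12 libraries and 12 a mean of at least 100. The 4 highest, the dehydrin PCP019521, the LEA-5 gene PCP007419, the LEA-14 gene PCP001690 and the dehydrin PCP026216, carried 50.8% of the summed FPKM of the set. Together the 130 genes made up 0.556% to 0.598% of the total FPKM of a library in ‘RCF2’, 0.805% to 0.929% in ‘RCF1’, 0.486% to 0.589% in ‘CF2’ and 0.936% to 1.73% in ‘CF1’. In both cultivars every library at 5 DAFB had a lower share than every library at 2 DAFB.

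The stage comparisons ask what changed in the skin during these 3 days, in which the sport turned red. In ‘RCF2’ vs. ‘RCF1’, 23 of the 78 tested members fell and 4 rose. Over all tested genes 6.71% were called lower and 3.54% higher in this comparison, against 29.5% and 5.13% of the members. All 27 calls held after adjustment, as did calls of 10.2% of all tested genes. The median log2 fold change was -0.38 over the members and 0.02 over all tested genes. In ‘CF2’ vs. ‘CF1’, 29 members fell and 5 rose. The background was 9.91% lower and 7.23% higher, against 37.2% and 6.41% of the members. After adjustment 28 of the 34 calls held, with 12.6% of all tested genes called and held. The medians were -0.55 over the members and 0.16 over all tested genes. Without ‘CF1’ replicate 3, 25 members were called lower and 2 higher, and without ‘CF1’ replicate 2, 28 lower and 7 higher. Without ‘CF1’ replicate 1, 4716 of all tested genes were called. Members had 38 of these calls, of which 16 held after adjustment. Among those that no longer held were the LEA-14 genes PCP010924 (adjusted P = 0.0756), PCP036965 (0.085) and PCP024019 (0.053) and the LEA-25/LEA-D113 gene PCP026019 (0.0927). The adjusted calls also rested on the ‘CF2’ libraries. Without ‘CF2’ replicate 1 or 2 none of 28 and 29 calls held, without ‘CF2’ replicate 3 10 of 33 held, and in each of these fits only 1 member was called higher. Over all tested genes, 3651, 3593 and 3875 were called without ‘CF2’ replicate 1, 2 or 3.

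The 2 stage comparisons share no library. A fall was called in both for 21 members, which are 91.3% of the members lower in ‘RCF2’ vs. ‘RCF1’ and 72.4% of those lower in ‘CF2’ vs. ‘CF1’. Over all tested genes, the 1373 called lower in both were 79.5% of those lower in ‘RCF’ and 53.9% of those lower in ‘CF’. A rise was called in both for 2 members, and the matching number over all tested genes was not counted. The filter itself favors some of these calls, since a gene silent at one stage passed only through the other. There were 5 members that passed with no library at 5 DAFB at an FPKM of 1 or more, and 2 that passed with no such library at 2 DAFB. The 5 were PCP002552, PCP012772, PCP010825, PCP018688 and PCP041480, and none of them could be called higher at 5 DAFB. Leaving out the 5, 20 members were called lower at 5 DAFB in ‘RCF’ and 25 in ‘CF’. Genes of this kind were not left out of the shares over all tested genes, so these counts have no matching background. In a bulk sample, fewer cells of a type and less RNA per cell cannot be told apart.

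**Figure D1:**
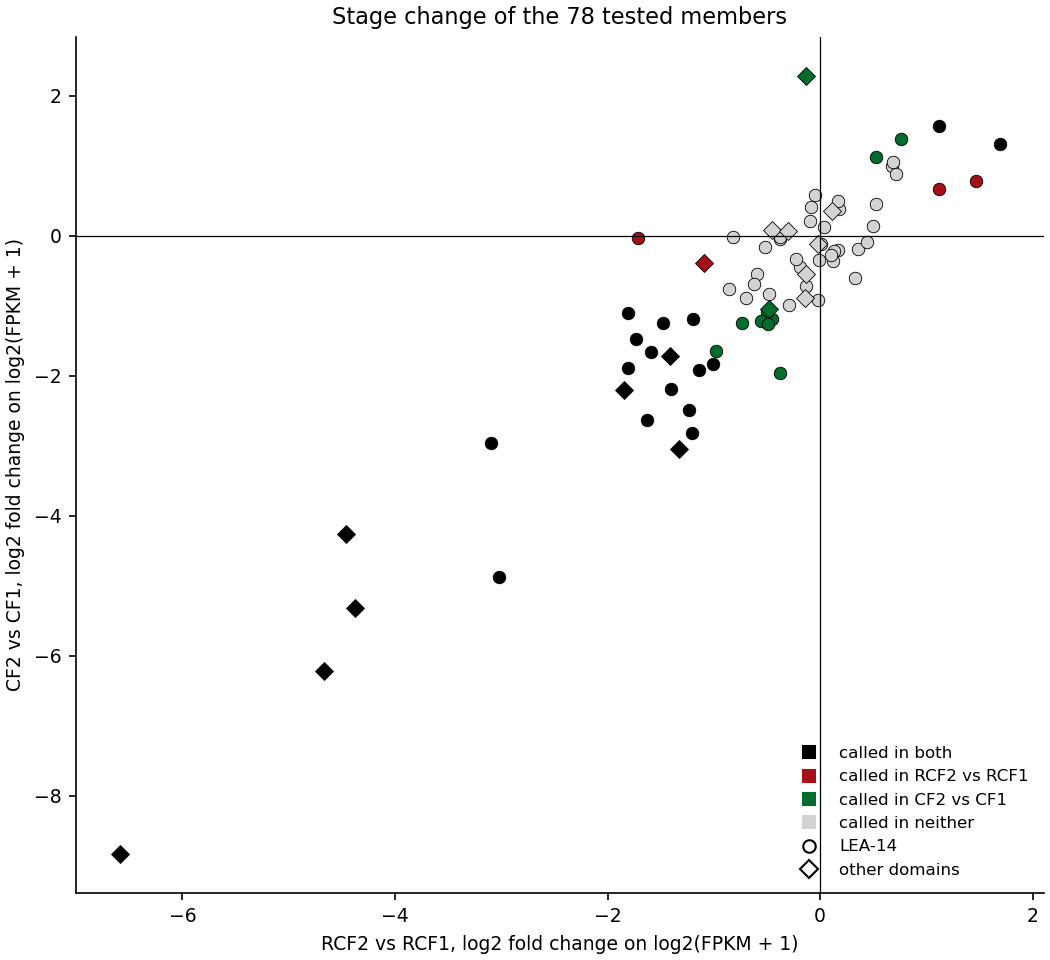
Log2 fold change from 2 to 5 DAFB in ‘RCF’ (x axis, ‘RCF2’ vs. ‘RCF1’) and ‘CF’ (y axis, ‘CF2’ vs. ‘CF1’) for the 78 members that passed the filter, on the log2(FPKM + 1) scale. Diamonds are members without the LEA-14 domain, circles are LEA-14 genes, and black marks the members called in both comparisons. The lowest point is the ABA/WDS gene PCP002552, at -6.59 and -8.83.

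Dehydrins are disordered proteins with a repeated lysine-rich motif that bind membranes and, in many plants, build up in seeds, buds and drought- or cold-treated tissue. The 6 dehydrin genes that passed the filter fell into 3 that stayed high at both stages and 3 that were nearly lost by 5 DAFB. PCP019521 was the 11th highest gene of the whole table by its mean FPKM. It had 964, 1021 and 1017 FPKM in ‘RCF2’, 979, 1072 and 989 in ‘RCF1’, 990.5, 1174 and 1125 in ‘CF2’ and 1222, 1063 and 1307 in ‘CF1’. The groups of PCP019521 overlapped in all 4 comparisons, with log2 fold changes between -0.24 and -0.02.

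PCP026216 had 233, 269 and 211 FPKM in ‘RCF2’, 240, 296 and 246 in ‘RCF1’, 310, 340 and 342 in ‘CF2’ and 495, 403 and 570 in ‘CF1’. Its lowest ‘CF’ library was above its highest ‘RCF’ library, at both stages. The log2 fold change was -0.90 ± 0.20 in ‘RCF1’ vs. ‘CF1’ (adjusted P = 0.208) and -0.48 ± 0.10 in ‘RCF2’ vs. ‘CF2’ (adjusted P = 0.0315), below the fold of a DEG in both. The stages of PCP026216 did not overlap in ‘CF’ either, with -0.55 ± 0.20 in ‘CF2’ vs. ‘CF1’ (adjusted P = 0.0864). The third of these dehydrins, PCP025752, had 133.5, 150 and 126 FPKM in ‘RCF2’, 166, 156 and 131 in ‘RCF1’, 123, 161 and 169 in ‘CF2’ and 242, 251.5 and 351.5 in ‘CF1’. Only the ‘CF1’ libraries stood apart. The log2 fold change of PCP025752 was -0.88 ± 0.20 in ‘RCF1’ vs. ‘CF1’ (adjusted P = 0.214) and -0.89 ± 0.22 in ‘CF2’ vs. ‘CF1’ (adjusted P = 0.0393), again below the fold of a DEG. Without ‘CF1’ replicate 1 the adjusted P in ‘CF2’ vs. ‘CF1’ was 0.0807.

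The other 3 dehydrins fell by more than 4 on the log2 scale in both cultivars. PCP014532 had 6.92, 6.79 and 5.88 FPKM in ‘RCF2’, 196, 160 and 143 in ‘RCF1’, 25.7, 12.03 and 38.2 in ‘CF2’ and 559, 226 and 756 in ‘CF1’. The groups did not overlap in any of the 4 comparisons. PCP014532 gave a log2 fold change of -4.46 ± 0.12 in ‘RCF2’ vs. ‘RCF1’ (adjusted P = 9.6e-07) and -4.26 ± 0.58 in ‘CF2’ vs. ‘CF1’ (adjusted P = 0.0108).

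PCP026218 had 4.09, 3.93 and 3.21 FPKM in ‘RCF2’, 156, 78.8 and 139 in ‘RCF1’, 3.42, 4.33 and 4.08 in ‘CF2’ and 396, 164 and 752 in ‘CF1’. At 5 DAFB both cultivars were alike and low, and at 2 DAFB every ‘RCF1’ library was below every ‘CF1’ library. Its log2 fold change was -4.67 ± 0.23 in ‘RCF2’ vs. ‘RCF1’ (adjusted P = 9.92e-06) and -6.22 ± 0.53 in ‘CF2’ vs. ‘CF1’ (adjusted P = 0.00669). PCP020699 had 0.932, 1.46 and 0.378 FPKM in ‘RCF2’, 45.9, 29.5 and 40.1 in ‘RCF1’, 1.63, 2.02 and 1.18 in ‘CF2’ and 137, 31.3 and 240.5 in ‘CF1’. The stages did not overlap in either cultivar, while ‘CF1’ replicate 2 lay within the range of ‘RCF1’. PCP020699 gave -4.38 ± 0.23 in ‘RCF2’ vs. ‘RCF1’ (adjusted P = 1.19e-05) and -5.31 ± 0.71 in ‘CF2’ vs. ‘CF1’ (adjusted P = 0.0107).

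**Figure D2:**
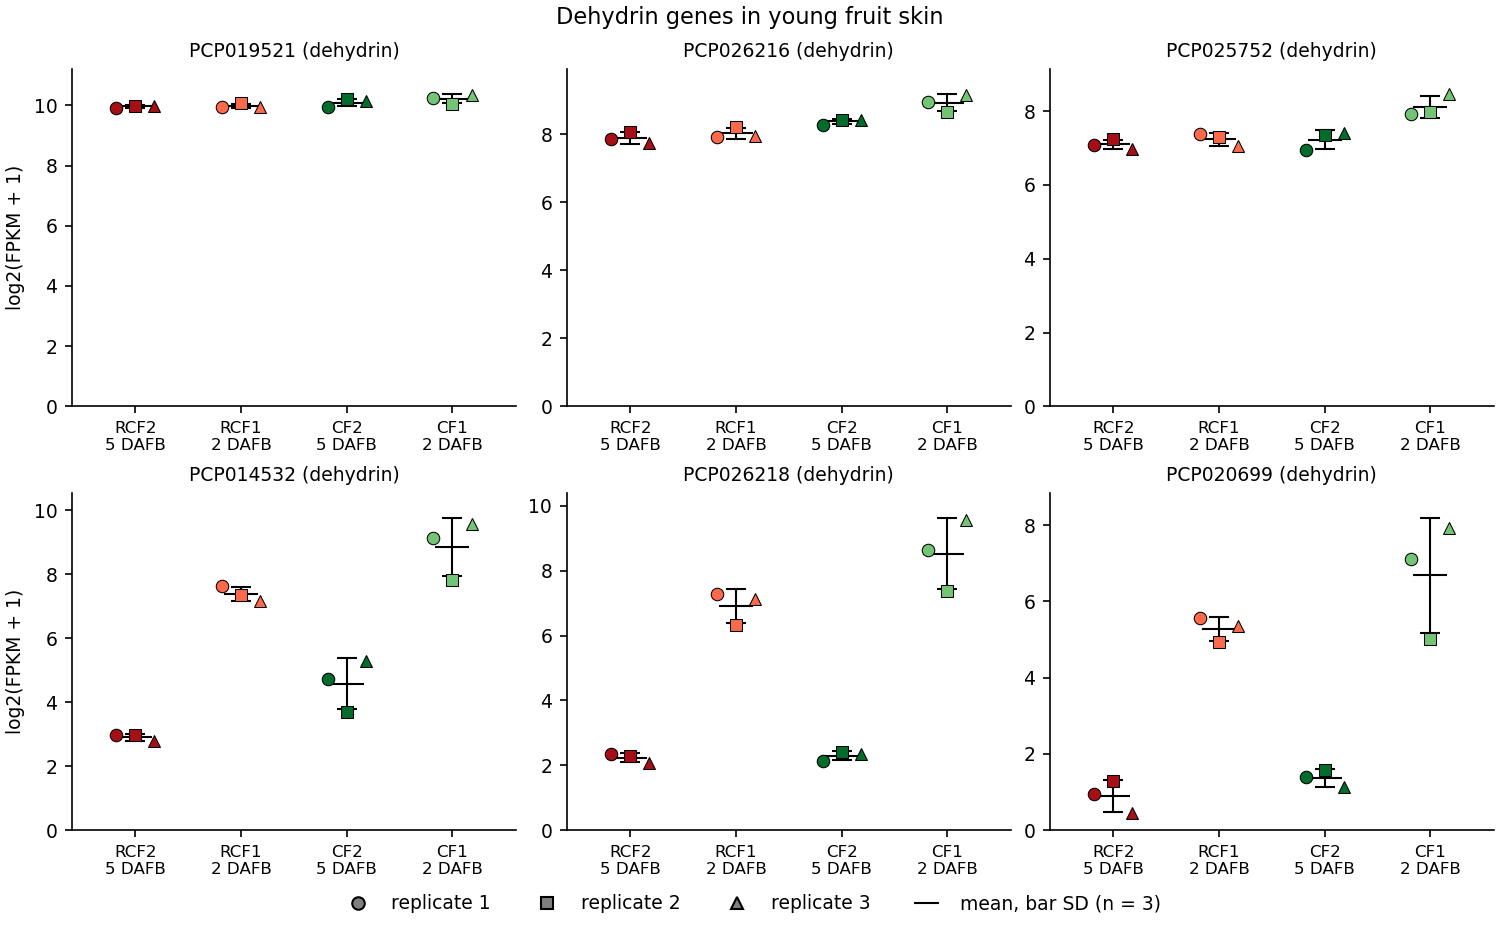
Expression of the 6 dehydrin genes that passed the filter, as log2(FPKM + 1), in each library of ‘RCF2’, ‘RCF1’, ‘CF2’ and ‘CF1’. Points are replicates, dashes the mean and bars the SD (n = 3). In the top row all groups stay high, and in the bottom row the 5 DAFB groups lie far below the 2 DAFB groups, with a wide spread in ‘CF1’.

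A dehydrin that stayed high at both stages lies near a falling dehydrin on the same scaffold. PCP026216 (scaffold00277, 93366 to 94581) and PCP026218 (102186 to 103980) lie on the same strand with 7604 bases between them, in the coordinates of the deposited table, which names no genome build. PCP014532 (scaffold00010, 301096 to 301934) also has a dehydrin gene on its scaffold, PCP034649, 17854 bases further on. PCP034649 had at most 0.144 FPKM in any library. Whether other genes lie between the genes of these pairs was not checked. How reads that match several dehydrin genes were counted is not given in the sources used here, and the paper's text speaks of an apple reference genome, so the values of close copies carry this uncertainty.

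ABA/WDS proteins, also called ASR proteins for ABA, stress and ripening, are small hydrophilic proteins first described in ripening tomato fruit. The ABA/WDS gene PCP002552 gave the largest change of the set. It had 0.164, 0.330 and 0.0742 FPKM in ‘RCF2’, 168, 53.3 and 163 in ‘RCF1’, 0.0477, 0 and 0 in ‘CF2’ and 771, 125 and 1007 in ‘CF1’. No library at 5 DAFB came near any at 2 DAFB, at which the ‘CF1’ replicates were 125 FPKM or more. PCP002552 fell by 6.59 ± 0.40 on the log2 scale in ‘RCF2’ vs. ‘RCF1’ (adjusted P = 1.99e-05), the 3rd largest fall among the tested genes. In ‘CF2’ vs. ‘CF1’ its value was -8.83 ± 0.77 (adjusted P = 0.00669), the largest fall of all tested genes, and -8.26 without ‘CF1’ replicate 3. PCP002552 passed the filter only through its libraries at 2 DAFB, so its stage tests and ranks could show only a fall. For a gene this close to 0 the fold depends on the pseudocount, and with 0.1 in place of 1 it was -11.98 in ‘CF’.

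The second expressed ABA/WDS gene, PCP010520, which the study's annotation names as an abscisic stress-ripening protein, changed far less. It had 66.5, 67.4 and 73.3 FPKM in ‘RCF2’, 146, 172 and 129 in ‘RCF1’, 109, 114 and 122.5 in ‘CF2’ and 138, 183 and 136 in ‘CF1’. The ‘RCF2’ libraries were the lowest and did not overlap with any other group. It fell by 1.09 ± 0.11 in ‘RCF2’ vs. ‘RCF1’ (adjusted P = 0.000186), against a log2 fold change of -0.39 ± 0.17 in ‘CF2’ vs. ‘CF1’ (adjusted P = 0.128). Without ‘RCF1’ replicate 2 the value in ‘RCF’ was -0.98, under the fold of a DEG. PCP010520 was also lower in ‘RCF2’ than in ‘CF2’, with a log2 fold change of -0.73 ± 0.07 (adjusted P = 0.00436), which is less than the fold of a DEG. The other ABA/WDS genes, PCP002553 and PCP002555, lie on the same scaffold as PCP002552 and had at most 0.11 FPKM in any library.

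Proteins with the LEA-5 domain include SAG21 of Arabidopsis, a small protein of mitochondria that responds to senescence, drought and oxidants, and the study's annotation likens PCP007419 and PCP015115 to it. PCP007419 was the most abundant LEA gene of the set. It had 370, 438 and 343 FPKM in ‘RCF2’, 1062, 867.5 and 962 in ‘RCF1’, 126, 162 and 278 in ‘CF2’ and 1360, 1082 and 2213 in ‘CF1’. Every ‘RCF1’ library was below every ‘CF1’ library, and every ‘RCF2’ library above every ‘CF2’ library. The log2 fold change of PCP007419 was -1.33 ± 0.12 in ‘RCF2’ vs. ‘RCF1’ (adjusted P = 0.000103) and -3.05 ± 0.40 in ‘CF2’ vs. ‘CF1’ (adjusted P = 0.0105).

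PCP015115 had 49.3, 53.5 and 46.3 FPKM in ‘RCF2’, 203, 155 and 191.5 in ‘RCF1’, 34.2, 38.7 and 43.2 in ‘CF2’ and 161, 140 and 262 in ‘CF1’. It was lower at 5 DAFB in both cultivars without overlap, with log2 fold changes of -1.85 ± 0.11 in ‘RCF2’ vs. ‘RCF1’ (adjusted P = 1.99e-05) and -2.20 ± 0.26 in ‘CF2’ vs. ‘CF1’ (adjusted P = 0.00889). PCP031749 stayed between 13.6 and 19.4 FPKM in all 12 libraries. PCP028275 had 23.5, 16.7 and 19.6 FPKM in ‘RCF2’, 26.3, 23.6 and 16.5 in ‘RCF1’, 21.0, 21.2 and 20.7 in ‘CF2’ and 5.66, 9.996 and 0.242 in ‘CF1’. Only ‘CF1’ was low, and within it replicate 3 was almost at 0. PCP028275 was called higher in ‘CF2’ vs. ‘CF1’, with a log2 fold change of 2.29 ± 0.77 (adjusted P = 0.0758), which was 1.36 ± 0.21 (adjusted P = 0.00573) without ‘CF1’ replicate 3. Without any single ‘CF2’ library its unadjusted P was 0.0605 to 0.0642, and the call was lost.

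The LEA-25/LEA-D113 domain is that of the D-113 protein of cotton seeds. PCP026019 had 11.8, 6.21 and 9.64 FPKM in ‘RCF2’, 28.4, 17.9 and 31.8 in ‘RCF1’, 9.92, 11.5 and 8.97 in ‘CF2’ and 37.8, 18.9 and 60.4 in ‘CF1’. The stages did not overlap in either cultivar, and the cultivars overlapped at either stage. The log2 fold change of PCP026019 was -1.41 ± 0.25 in ‘RCF2’ vs. ‘RCF1’ (adjusted P = 0.00318) and -1.71 ± 0.40 in ‘CF2’ vs. ‘CF1’ (adjusted P = 0.0338). The other tested gene of this domain, PCP000051, had 2.32 to 5.83 FPKM and was called in no comparison. The LEA-18 gene PCP012772 had at most 1.06 FPKM in 11 libraries and 2.80 in ‘CF1’ replicate 3. Its log2 fold change in ‘CF2’ vs. ‘CF1’ was -1.04 ± 0.32 (adjusted P = 0.0596), but -0.71 without ‘CF1’ replicate 3. Without ‘CF2’ replicate 1 or 2 its unadjusted P was 0.0503 and 0.0564, and the call was lost. PCP027194, the only seed maturation gene that passed, lay between 0.417 and 2.02 FPKM and was called in no comparison.

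**Figure D3:**
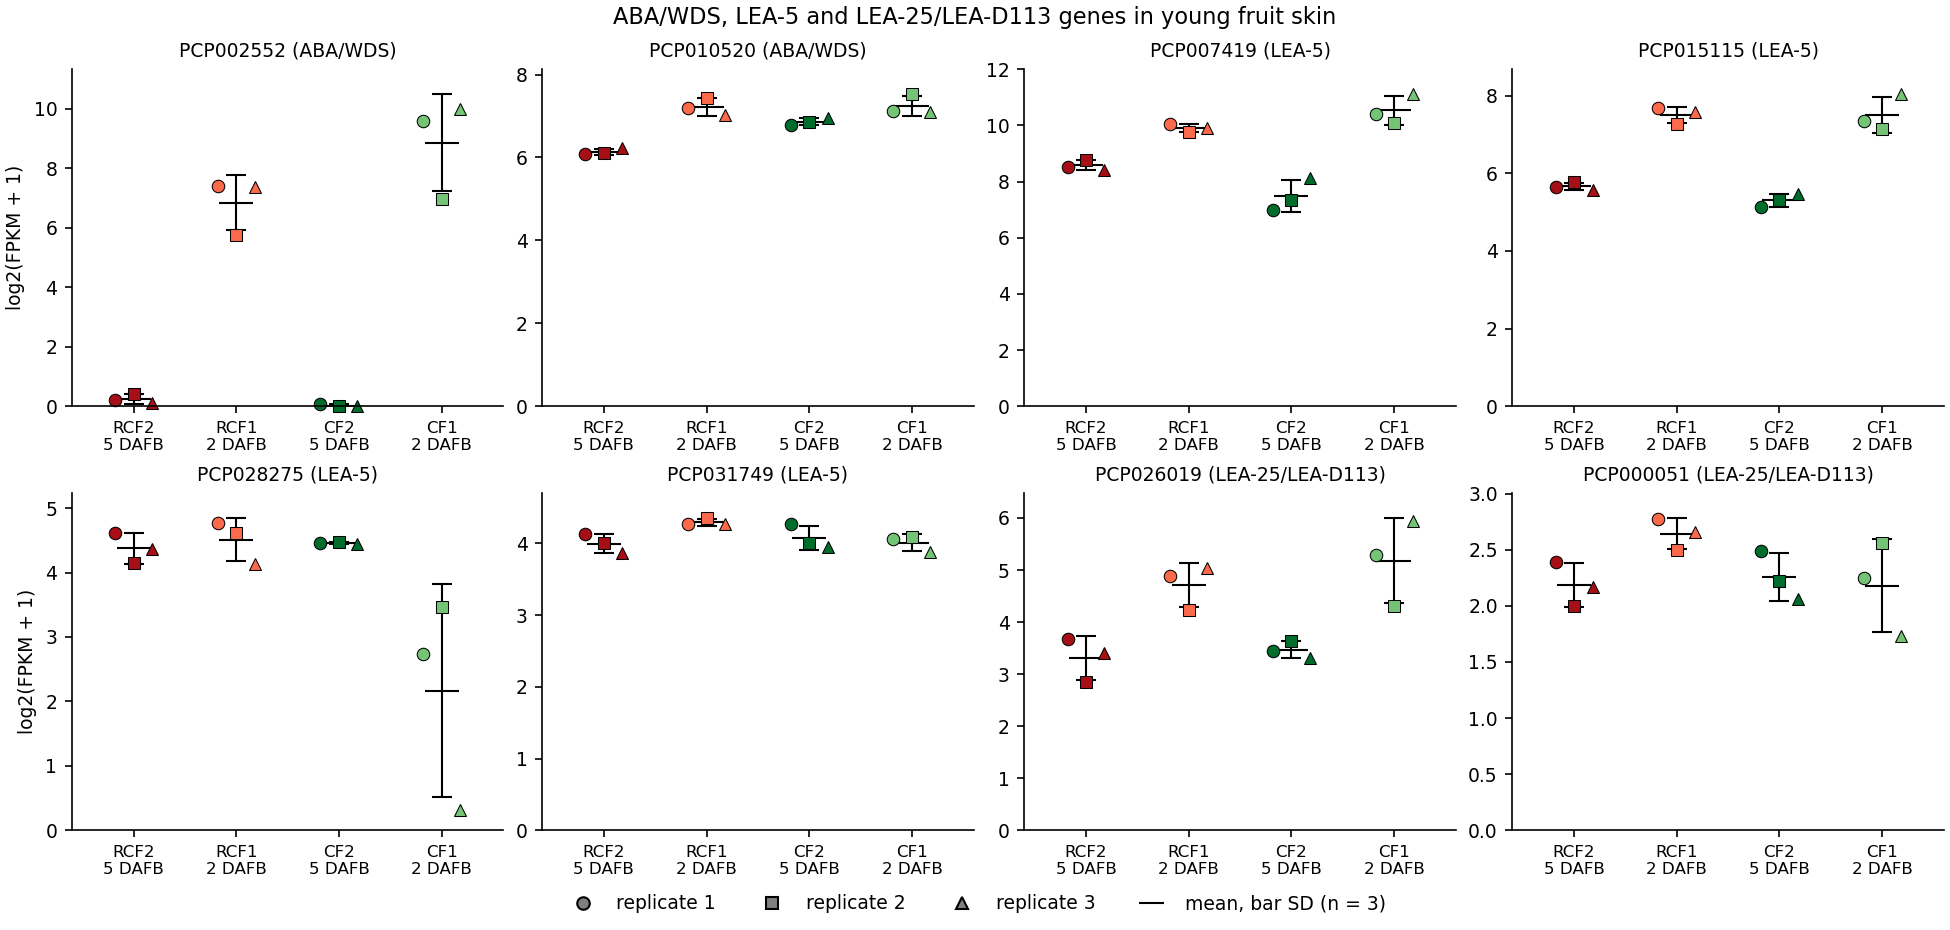
Expression of the ABA/WDS, LEA-5 and LEA-25/LEA-D113 genes that passed the filter, as log2(FPKM + 1), in each library of the 4 groups. Points are replicates, dashes the mean and bars the SD (n = 3), with bars cut off at 0. PCP002552 lies near 0 in all libraries at 5 DAFB, PCP007419 is higher in ‘RCF2’ than in ‘CF2’, and PCP028275 is low in ‘CF1’ only.

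The 16 tested members without the LEA-14 domain counted 8 falls and no rise in the sport, and 8 falls and 1 rise in its parent. The falls are 50% of the 16 in either cultivar, against 6.71% of all tested genes in ‘RCF’ and 9.91% in ‘CF’. The rise is 6.25%, against 7.23% of all tested genes. In the ‘CF1’ libraries of the 8 that fell in ‘CF’, replicate 3 was the highest in 8 and replicate 2 the lowest in 7. The same order is common in the whole table. Among the 2548 genes called lower in ‘CF2’ vs. ‘CF1’, ‘CF1’ replicate 3 was the highest of its group for 84.9% and replicate 2 the lowest for 76.9%, against 72.4% and 65.5% of the 29 members that fell. All 5 members that rose in this comparison were lowest in ‘CF1’ replicate 3. The part of this difference between ‘CF1’ libraries in the results was not tested beyond leaving each library out.

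Of the 92 LEA-14 genes, 62 passed the filter, with mean FPKM from 0.608 to 383 and a median of 10. In ‘RCF2’ vs. ‘RCF1’ 15 of them fell, with log2 fold changes from -3.10 to -1.01 and a median of -1.59, and 4 rose, by 1.12 to 1.69. In the other cultivar 21 fell, with values from -4.87 to -1.08 and a median of -1.66, and 4 rose, by 1.13 to 1.57. In both cultivars 14 of the 62 tested LEA-14 genes fell and 2 rose. Over all tested genes 1373, or 5.34%, were called lower in both. The matching share of rises in both was not counted. The LEA-14 shares called lower and higher were 24.2% and 6.45% in ‘RCF’, against 6.71% and 3.54% of all tested genes. In ‘CF’ they were 33.9% and 6.45%, against 9.91% and 7.23%.

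PCP032973 was among the LEA-14 genes with the largest falls. It had 3.41, 4.39 and 3.46 FPKM in ‘RCF2’, 46.4, 23.8 and 47.2 in ‘RCF1’, 3.36, 2.81 and 2.71 in ‘CF2’ and 162, 35.8 and 258 in ‘CF1’. All libraries at 5 DAFB were low, and at 2 DAFB ‘CF1’ replicate 3 was the highest and ‘CF1’ replicate 2 lay within the range of ‘RCF1’. PCP032973 gave a log2 fold change of -3.02 ± 0.24 in ‘RCF2’ vs. ‘RCF1’ (adjusted P = 7.26e-05) and -4.87 ± 0.69 in ‘CF2’ vs. ‘CF1’ (adjusted P = 0.0116).

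PCP010825 had 0.0816, 0 and 0.322 FPKM in ‘RCF2’, 9.47, 8.19 and 8.30 in ‘RCF1’, 0.233, 0.0436 and 0.295 in ‘CF2’ and 8.20, 4.29 and 15.1 in ‘CF1’. It was almost absent at 5 DAFB in either cultivar, with log2 fold changes of -3.10 ± 0.13 in ‘RCF2’ vs. ‘RCF1’ (adjusted P = 5.74e-06) and -2.96 ± 0.40 in ‘CF2’ vs. ‘CF1’ (adjusted P = 0.0107). PCP010825 passed the filter only through 2 DAFB. PCP036965 had 32.0, 34.4 and 31.2 FPKM in ‘RCF2’, 93.2, 59.6 and 80.3 in ‘RCF1’, 28.2, 25.3 and 24.9 in ‘CF2’ and 202, 73.2 and 457 in ‘CF1’. The ‘CF1’ replicates differed more among themselves than the ‘RCF’ groups did from each other. PCP036965 gave a log2 fold change of -1.21 ± 0.15 in ‘RCF2’ vs. ‘RCF1’ (adjusted P = 0.000499) and -2.81 ± 0.62 in ‘CF2’ vs. ‘CF1’ (adjusted P = 0.0298).

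Other named LEA-14 genes that fell in both cultivars were PCP018688, PCP015099, PCP024019 and PCP010823. PCP018688, which passed the filter only through 2 DAFB, and PCP015099 were low genes, with means of 3.12 and 3.31 FPKM. Their log2 fold changes were -1.63 ± 0.11 and -1.81 ± 0.20 in ‘RCF2’ vs. ‘RCF1’, and -2.63 ± 0.27 and -1.88 ± 0.26 in ‘CF2’ vs. ‘CF1’. PCP024019 and PCP010823 had means of 27.9 and 135 FPKM. In ‘RCF2’ vs. ‘RCF1’ PCP024019 gave -1.81 ± 0.15 and PCP010823 gave -1.01 ± 0.19, and in ‘CF2’ vs. ‘CF1’ the values were -1.10 ± 0.26 for PCP024019 and -1.83 ± 0.22 for PCP010823. The call of PCP010823 in ‘RCF’ sat at the threshold and was lost in 5 of 13 alternative settings, among them without ‘RCF1’ replicate 1 (-0.92) or 2 (-0.88) and without ‘RCF2’ replicate 2 (-0.98) or 3 (-0.93). That of PCP024019 in ‘CF’ was lost without ‘CF1’ replicate 2 (-0.89) or ‘CF2’ replicate 1 (-0.93).

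The 5 LEA-14 genes with the highest mean FPKM include PCP010823 and PCP036965 as well as PCP001690, PCP018854 and PCP010924. PCP001690 had 385, 417 and 385 FPKM in ‘RCF2’, 410, 466 and 334 in ‘RCF1’, 202, 247 and 305.5 in ‘CF2’ and 572, 351 and 521 in ‘CF1’. Its stages overlapped in ‘RCF’, with a log2 fold change of -0.02 ± 0.12, and did not in ‘CF’, with -0.92 ± 0.27 (adjusted P = 0.0536), below the fold of a DEG. PCP018854 lay between 74.2 and 170 FPKM and was called in no comparison.

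The other members that rose carried the LEA-14 domain. PCP026736 had 6.89, 5.67 and 6.55 FPKM in ‘RCF2’, 0.850, 1.46 and 1.63 in ‘RCF1’, 5.72, 7.72 and 7.45 in ‘CF2’ and 2.82, 2.09 and 1.73 in ‘CF1’. The stages were apart in both cultivars, and the log2 fold change was 1.69 ± 0.15 in ‘RCF2’ vs. ‘RCF1’ (adjusted P = 0.000104) and 1.31 ± 0.18 in ‘CF2’ vs. ‘CF1’ (adjusted P = 0.0115). PCP009045 rose by 1.12 ± 0.15 in ‘RCF2’ vs. ‘RCF1’ (adjusted P = 0.000736) and by 1.57 ± 0.52 in ‘CF2’ vs. ‘CF1’ (adjusted P = 0.0721). Without ‘CF1’ replicate 3, where it had 0.750 FPKM against 5.68 and 5.24 in the other ‘CF1’ libraries, the value in ‘CF’ was 0.94, and without ‘RCF1’ replicate 1 that in ‘RCF’ was 0.96. PCP000555 was called higher in ‘RCF2’ vs. ‘RCF1’, at 1.47 ± 0.09 (adjusted P = 2.65e-05), while in ‘CF2’ vs. ‘CF1’ it had 0.78 ± 0.20. PCP027982, which the study's annotation names as an NDR1/HIN1-like protein, was likewise called higher in ‘RCF2’ vs. ‘RCF1’, at 1.12 ± 0.17 (adjusted P = 0.00131), and had 0.67 ± 0.29 in ‘CF2’ vs. ‘CF1’. Without ‘RCF1’ replicate 2 PCP027982 fell below the threshold, at 0.96. PCP005135 and PCP017418 were called higher in ‘CF2’ vs. ‘CF1’, by 1.39 ± 0.51 (adjusted P = 0.0916) and 1.13 ± 0.40 (adjusted P = 0.0846), and had 0.76 and 0.53 in ‘RCF2’ vs. ‘RCF1’. In ‘CF’ the values were 0.76 and 0.65 without ‘CF1’ replicate 3, and the calls of PCP005135, PCP017418 and PCP009045 were also lost, at similar folds, without any single ‘CF2’ library (unadjusted P from 0.0517 to 0.0836).

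**Figure D4:**
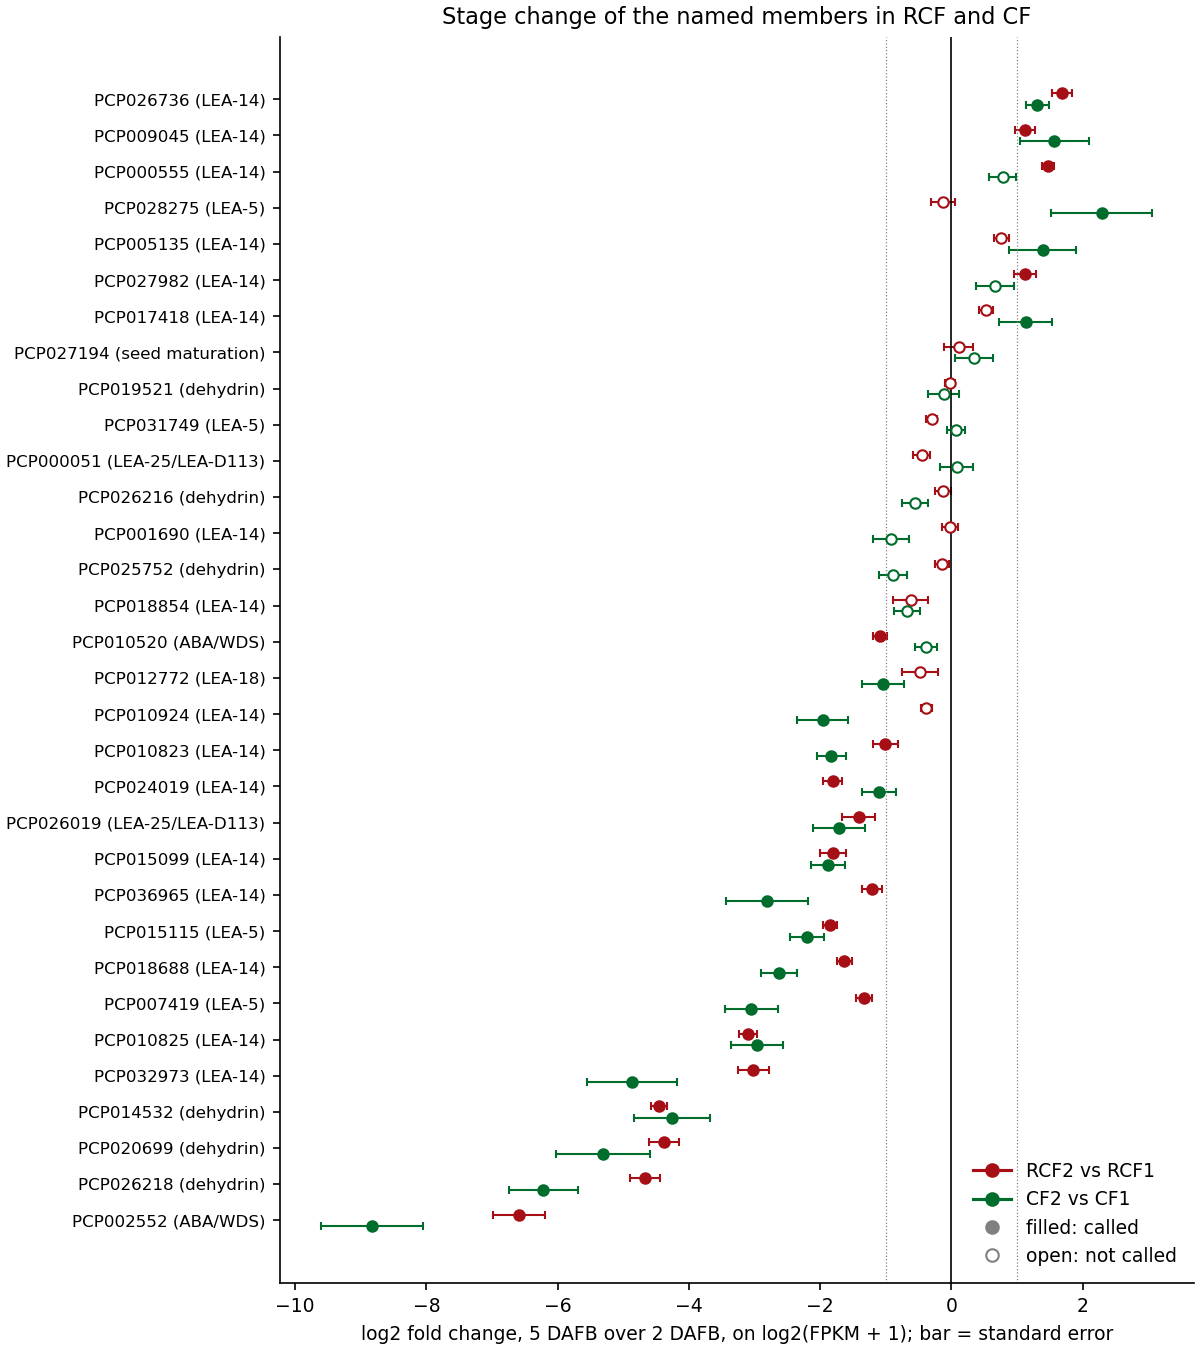
Log2 fold change from 2 to 5 DAFB, on the log2(FPKM + 1) scale, for the 32 named members, with ‘RCF2’ vs. ‘RCF1’ above ‘CF2’ vs. ‘CF1’ in each row. Bars are standard errors (n = 3 libraries per group), filled points were called and open points were not, and dotted lines mark the fold of a DEG. PCP002552 lies lowest in both cultivars, and most bars of ‘CF’ are wider than those of ‘RCF’.

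The 130 genes lay on 96 scaffolds, and 56 of them shared a scaffold with another member. The scaffold with the most members, scaffold01352, held 6 LEA-14 genes with different outcomes. Among them, PCP018687 had 17.8, 16.6 and 20.7 FPKM in ‘RCF2’, 63.0, 59.5 and 63.8 in ‘RCF1’, 35.9, 26.9 and 34.9 in ‘CF2’ and 25.6, 31.9 and 44.0 in ‘CF1’. It fell by 1.71 ± 0.09 in ‘RCF2’ vs. ‘RCF1’ (adjusted P = 1.21e-05) and had a log2 fold change of -0.03 ± 0.23 in ‘CF2’ vs. ‘CF1’ (adjusted P = 0.924). This gene was outside the rule for named genes and was singled out after its values were seen. The next member on the scaffold, PCP018688, 7449 bases away, fell in both cultivars. So did PCP018691 further on, with log2 fold changes of -1.23 ± 0.20 in ‘RCF’ and -2.49 ± 0.29 in ‘CF’.

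The cultivar comparisons ask what differed between the sport and its parent, before and after the fruit reddened. Few members were called. In ‘RCF1’ vs. ‘CF1’, 2 of 78 tested members were called higher and 2 lower, where 1.02% of all tested genes were called higher and 1.87% lower, that is 2.56% of the members in either direction. None of these 4 held after adjustment, as for nearly all genes of this comparison (0.0233% called and held). At an unadjusted P under 0.05 there were 13 members at any fold, or 16.7%, near the 15.6% of all tested genes. The dehydrins PCP014532 and PCP026218 were lower in ‘RCF1’, with log2 fold changes of -1.47 ± 0.46 (adjusted P = 0.277) and -1.60 ± 0.59 (adjusted P = 0.301). All 6 dehydrins had a negative log2 fold change here, from -1.60 to -0.24, as had 52 of the 78 members and 9698 of the 25707 tested genes. The 6 signs are not independent, since all rest on the same ‘CF1’ libraries, of which replicate 3 was the highest for each dehydrin. Without ‘CF1’ replicate 3 the value of PCP026218 was -1.08 and its unadjusted P 0.0538. Neither PCP014532 (-1.32, unadjusted P = 0.0619) nor PCP026218 (-1.55, unadjusted P = 0.0861) was called without ‘CF1’ replicate 1. PCP028275 and PCP017418 were called higher in ‘RCF1’, at 2.34 ± 0.80 (adjusted P = 0.29) and 1.06 ± 0.41 (adjusted P = 0.315), and without ‘CF1’ replicate 3 at 1.41 and 0.58. Without ‘RCF1’ replicate 2 none of the 4 was called (unadjusted P = 0.0539 for PCP014532), and without ‘RCF1’ replicate 1 or 3 or without ‘CF1’ replicate 1 only 1, 1 and 2 members were. Without ‘CF1’ replicate 2 there were 12 calls, 10 of them lower in ‘RCF1’. Over all tested genes, 742 were called with all libraries and 2359 without ‘CF1’ replicate 2. They were 589, 448 and 547 without ‘RCF1’ replicate 1, 2 or 3, and 549 without ‘CF1’ replicate 1.

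In ‘RCF2’ vs. ‘CF2’, 2 members were called higher and 1 lower, with a background of 0.902% higher and 0.358% lower, against 2.56% and 1.28% of the members. The 3 calls held after adjustment, as did those of 1.07% of all tested genes. This did not hold in other fits, with 0 of the 3 held in 1 fit of all 12 libraries, 1 with no filter, and 1 without ‘CF2’ replicate 1 or without any single ‘RCF2’ library. PCP010924, a LEA-14 gene, had 82.7, 95.3 and 81.8 FPKM in ‘RCF2’ and 28.0, 40.3 and 42.3 in ‘CF2’, with 121, 110 and 108 in ‘RCF1’ and 159, 82.7 and 230 in ‘CF1’. Every ‘RCF2’ library was well above every ‘CF2’ library, with a log2 fold change of 1.23 ± 0.15 (adjusted P = 0.00843). In ‘CF2’ vs. ‘CF1’ PCP010924 had -1.96 ± 0.39 (adjusted P = 0.0235), while in ‘RCF2’ vs. ‘RCF1’ its log2 fold change of -0.38 ± 0.09 (adjusted P = 0.00824) was below the fold of a DEG. PCP007419, the abundant LEA-5 gene, was higher in ‘RCF2’ than in ‘CF2’ by 1.10 ± 0.27 (adjusted P = 0.049, with 0.00892 to 0.152 over the alternatives), but by 0.84 without ‘CF2’ replicate 1 and just short of the threshold without ‘RCF2’ replicate 2. Without ‘CF2’ replicate 3 there were 5 calls in this comparison, and 443 over all tested genes against 324 with all libraries. The dehydrin PCP014532 was lower in ‘RCF2’, at -1.67 ± 0.35 (adjusted P = 0.0333), and it was the only member called lower in the sport at both stages.

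**Figure D5:**
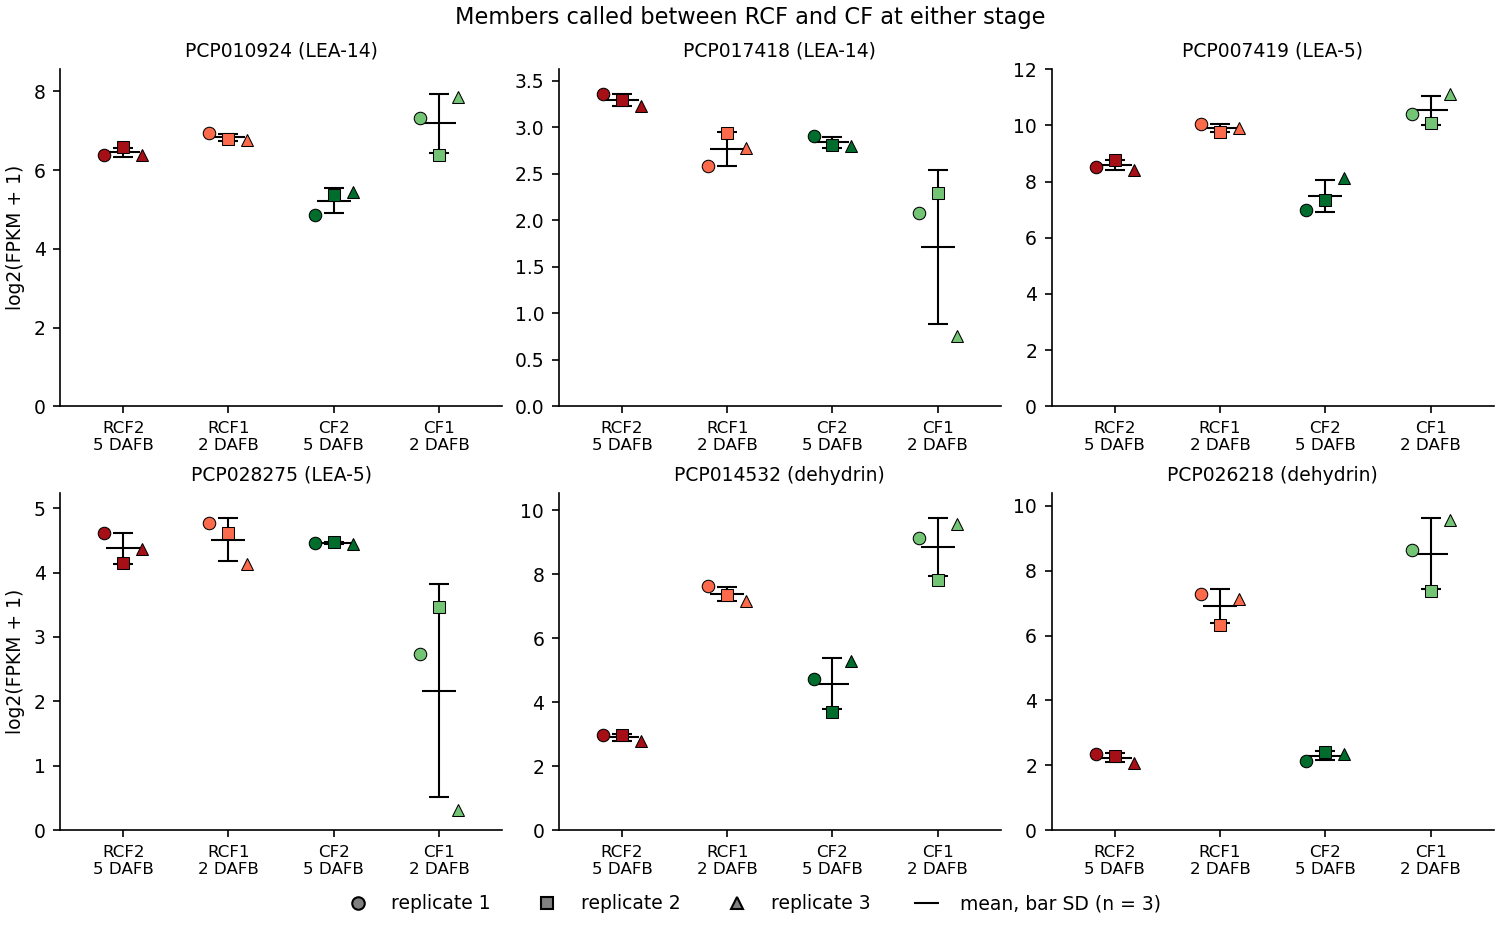
Expression of the 6 members called between ‘RCF’ and ‘CF’ at either stage, as log2(FPKM + 1), in each library. Points are replicates, dashes the mean and bars the SD (n = 3). PCP010924 and PCP007419 are higher in ‘RCF2’ than in ‘CF2’, PCP014532 is lower in the sport at both stages, and PCP017418 and PCP028275 are lowest in ‘CF1’ replicate 3.

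Whether the change from 2 to 5 DAFB itself differed between cultivars was tested as an interaction over all 12 libraries with limma. No member, and no gene of the whole table, had an adjusted P under 0.05 with a difference of at least 1. At an unadjusted P under 0.05 there were 20 of 78 members, of which 15 had a positive and 5 a negative difference of log2 fold changes (‘RCF’ minus ‘CF’), against 15.8% of all tested genes (4061). The median difference was 0.28 over the members and -0.12 over all tested genes. Of the 21 members that fell in both cultivars, 15 had the larger fall in ‘CF’. The matching share over all genes that fell in both was not counted, so this count is not set apart from the whole table. The lowest adjusted P of a member was that of PCP018687 (difference -1.68 ± 0.26, adjusted P = 0.0657), followed by PCP007419 (1.72 ± 0.44, adjusted P = 0.148) and PCP010924 (1.58 ± 0.43, adjusted P = 0.167). This test depended on ‘CF1’ replicate 2. Without it 11 members were called, 9 with a positive and 2 with a negative difference, among them PCP002552 (3.17, adjusted P = 0.0104), PCP026218 (2.12, adjusted P = 0.0153), PCP020699 (1.76, adjusted P = 0.0242) and PCP007419 (1.95, adjusted P = 0.0212). Without this library 1809 of all tested genes were called. Without ‘CF1’ replicate 3 PCP018687 was the only member called, at -1.88 (adjusted P = 0.00516), and 160 of all tested genes were called.

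Other genes of ABA response were taken by domain name, from lists that share no gene with the set. Carotenoid oxygenases include the enzyme that cleaves carotenoids toward ABA. Of 24 such genes 12 passed the filter, of which 4 fell and 1 rose in ‘RCF2’ vs. ‘RCF1’ and 6 fell in ‘CF2’ vs. ‘CF1’. In ‘RCF’ these are 33.3% lower and 8.33% higher, against 6.71% and 3.54% of all tested genes. The falls in ‘CF’ are 50%, against 9.91%. The summed FPKM of this list was 97.1 to 112 in ‘RCF2’, 118 to 147 in ‘RCF1’, 125 to 138 in ‘CF2’ and 164 to 408 in ‘CF1’. In ‘RCF1’ vs. ‘CF1’ 5 were called lower, or 41.7% against 1.87% of all tested genes, and none held after adjustment. Type 2C phosphatases include the proteins that ABA receptors inhibit, among many others. Of 91 tested phosphatase genes, 8 fell and 1 rose in ‘RCF2’ vs. ‘RCF1’ and 14 fell and 2 rose in ‘CF2’ vs. ‘CF1’. Called either way, these are 9.89% and 17.6% of the list, near the 10.3% and 17.1% over all tested genes. The directions were less alike. In ‘RCF2’ vs. ‘RCF1’ 8.79% of the list was called lower and 1.1% higher, against 6.71% and 3.54% of all tested genes. In ‘CF2’ vs. ‘CF1’ the shares were 15.4% and 2.2%, against 9.91% and 7.23%. The largest fall was in PCP005016, with 0.287, 0.359 and 0.203 FPKM in ‘RCF2’ and 59.8, 20.7 and 56.5 in ‘RCF1’, and 0.332, 0.481 and 0.421 in ‘CF2’ and 153, 54.4 and 225 in ‘CF1’. This gene was near 0 at 5 DAFB in both cultivars, as PCP002552 was, with log2 fold changes of -5.05 ± 0.36 (adjusted P = 3.87e-05) and -6.46 ± 0.50 (adjusted P = 0.00612). PCP005016 also passed the filter only through its libraries at 2 DAFB, so its stage tests could show only a fall.

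Raffinose, which many seeds store, and related sugars are made by enzymes of another list of 9 genes, of which 5 passed. In ‘RCF2’ vs. ‘RCF1’ 1 fell and 1 rose, and in ‘CF2’ vs. ‘CF1’ 4 fell, of which 1 held after adjustment. In ‘RCF’ this is 20% of the 5 in each direction, against 6.71% lower and 3.54% higher over all tested genes. The falls in ‘CF’ are 80%, against 9.91%. The summed FPKM of this list was 30.8 to 37.5 in ‘RCF2’, 46.8 to 65.6 in ‘RCF1’, 33.9 to 42.1 in ‘CF2’ and 52.8 to 278 in ‘CF1’. Of 10 tested HVA22-like genes, ABA-induced membrane proteins first found in barley, none was called in ‘RCF2’ vs. ‘RCF1’ and 1, PCP033092, rose in ‘CF2’ vs. ‘CF1’ by 1.33 ± 0.29 (adjusted P = 0.0282). That is 10% of the list, near the 7.23% called higher over all tested genes. The summed FPKM of this list was 350 to 459 in ‘RCF2’, ‘RCF1’ and ‘CF2’ and 77.3 to 301 in ‘CF1’. Of 9 tested BURP genes, the class of the drought gene RD22, 3 rose with stage in ‘RCF’ and 1 in ‘CF’, and none fell. The rises are 33.3% and 11.1% of the 9, against 3.54% and 7.23% of all tested genes. None of the 8 Di19 genes, drought-induced zinc finger proteins, and not the single RCI2-like gene, a small membrane protein of cold-treated tissue, was called in any comparison. The 3 group 1 LEA-like genes, seed proteins under another domain name, summed to at most 0.452 FPKM.

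The falling members could also be read beside genes of other tissues that a skin sample may hold. A list of 17 seed storage and oil body genes (11-S storage proteins, oleosins, caleosins) had 4 members at 0 in all libraries and a summed FPKM of 7.71 to 10.3 in ‘RCF2’, 7.63 to 8.68 in ‘RCF1’, 13.9 to 16.1 in ‘CF2’ and 18.7 to 25.7 in ‘CF1’. Of its 4 tested genes, 1 fell and 1 rose in ‘RCF2’ vs. ‘RCF1’ and 1 fell in ‘CF2’ vs. ‘CF1’. Each is 25% of the 4. Over all tested genes 6.71% fell and 3.54% rose in ‘RCF’, and 9.91% fell in ‘CF’. The sums of the stages overlapped in ‘RCF’ and did not in ‘CF’, in which ‘CF2’ was the lower. A list of 33 pollen allergen-type genes, 4 of them at 0, summed to 3348 to 3560 FPKM in ‘RCF2’, 2984 to 3570 in ‘RCF1’, 3557 to 3629 in ‘CF2’ and 2996 to 3366 in ‘CF1’. Of its 23 tested genes, 4 fell and 2 rose in ‘RCF2’ vs. ‘RCF1’, and 1 fell and 3 rose in ‘CF2’ vs. ‘CF1’. In ‘RCF’ these are 17.4% and 8.7%, against 6.71% and 3.54% of all tested genes. In ‘CF’ they are 4.35% and 13%, against 9.91% and 7.23%. Such domain lists do not measure the share of a tissue, and its part in the results was not tested.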

How the data were processed

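Libraries of pear fruit skin were sequenced by the authors, and 1 table of FPKM per gene and library was deposited. FPKM values were used as deposited: the authors had scaled fragments to gene length and to mapped fragments, with no other scaling between libraries stated. The submitters' processing notes name Trimmomatic 0.38, HISAT2 2.1.0, StringTie 1.3.4d and DESeq2, while the methods of the paper name other programs for cleaning and testing. The paper's text names an improved apple genome as the mapping reference, which could not be reconciled with the scaffolds and PCP identifiers of the table. A genome build is not given with the table, and 0 of the 42760 identifiers matched the 42167 RefSeq genes at hand, so sequences are not shown.

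Read counts were not used here. FPKM steps of low genes put the depth of the libraries at 0.64 to 1.01 of that of ‘CF2’ replicate 1. At low FPKM a value rests on few fragments, and its counting error is unknown.

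Values were transformed to log2(FPKM + 1), which understates changes of low genes, and fitted with limma 3.58.1 in R 4.3.3 (lmFit, eBayes with trend, two-sided), using the 6 libraries of each comparison, or all 12 for the interaction. Tables were handled with Python 3.11.15, numpy 2.4.6 and pandas 2.3.3, and plots drawn with matplotlib 3.10.9. The thresholds are those of the study's methods. An exact permutation test of 3 against 3 libraries cannot give a P below 0.1. The code was tested on simulated data.

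Named members were all tested genes without the LEA-14 domain, the 5 LEA-14 genes with the highest mean FPKM, up to 4 of the largest called rises and falls of LEA-14 genes in each comparison, and all members called between cultivars. The members, lists and tests were chosen with earlier results of these data known. Alternatives were a pseudocount of 0.1, no filter, a filter at an FPKM of 10, rescaling to TPM, 1 fit of all 12 libraries, array weights, a replicate block, leaving out each library, and the adjusted P as threshold. Domain names sought for B3 factors, harpin-induced proteins, ketoacyl-CoA synthases, vicilins and cupins matched no gene of the table.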

Additional observations from a re-analysis of the deposited data

How the results depend on the processing

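The counts of members called in ‘RCF2’ vs. ‘RCF1’ (27) and ‘CF2’ vs. ‘CF1’ (34) stayed within 1.5 times under each alternative, with ranges of 24 to 31 and 27 to 38 members when a library was left out. Over all tested genes these ranges were 2419 to 2821 and 3075 to 6317. The 4 calls of ‘RCF1’ vs. ‘CF1’ became 2 with a pseudocount of 0.1, 9 in 1 fit of all libraries, 9 with array weights, 0 at an adjusted P under 0.05, and 0 to 12 with a library left out. Over all tested genes the 742 calls became 1231, 1168, 1422 and 6 in these settings, and 448 to 2359 with a library left out. The 3 calls of ‘RCF2’ vs. ‘CF2’ became 7 with a pseudocount of 0.1, and 2 to 5 with a library left out. Over all tested genes the 324 calls became 684 and 251 to 443. The interaction, with 0 calls, gave 13 with array weights, which in some fits did not fully converge, and 0 to 11 with a library left out, 11 of the 13 being those called without ‘CF1’ replicate 2. Over all tested genes this test gave 0 calls, 1502 with array weights, and 0 to 1809 with a library left out. The cause of these changes was not tested. Of 47 calls of named members in single comparisons, 32 were kept under every alternative, none was reversed, and 56 of 599 alternative values no longer passed. Rescaled to TPM, all tested genes had a median of 0.26 in ‘CF2’ vs. ‘CF1’ and the members -0.46, against 0.16 and -0.55 without rescaling, with 29 members lower and 6 higher. In that fit 5244 of all tested genes were called, against 4406 without rescaling.

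Replicate numbers did not pair the samples. The correlation of deviations from the group means between libraries of the same number was -0.18, 0.33 and -0.04 between ‘RCF1’ and ‘CF1’, and 0.14, 0.20 and 0.05 between ‘RCF2’ and ‘CF2’, and -0.02 to 0.06 between the stages of a cultivar. With a replicate block, 27 members were called in ‘RCF2’ vs. ‘RCF1’, 34 in ‘CF2’ vs. ‘CF1’, 8 in ‘RCF1’ vs. ‘CF1’, 0 in the interaction, and 3 in ‘RCF2’ vs. ‘CF2’. Of these, 19 in ‘CF2’ vs. ‘CF1’ and 1 in ‘RCF2’ vs. ‘CF2’ held after adjustment, against 28 and 3 without the block. Over all tested genes the block changed the calls of ‘RCF1’ vs. ‘CF1’ from 742 to 971. Depth limits the members near an FPKM of 1, whose values carry an unknown counting error.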

Other observations

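A list of genes with the WHy domain, named for water stress and the hypersensitive response and known also from LEA-14 proteins, was added after the domain names of the table were seen, and shares no gene with the set. Of 9 genes 5 passed the filter, and their summed FPKM was 224 to 231 in ‘RCF2’, 337 to 382 in ‘RCF1’, 244 to 260 in ‘CF2’ and 324 to 354 in ‘CF1’. In each cultivar 1 of the 5 was called lower at 5 DAFB, or 20%, against 6.71% of all tested genes in ‘RCF’ and 9.91% in ‘CF’. Genes of chlorophyll a/b binding proteins, a list added in the same way as a mark of green tissue, had 44 tested genes, of which 5 rose and 1 fell in ‘RCF2’ vs. ‘RCF1’ and 12 rose and 4 fell in ‘CF2’ vs. ‘CF1’, a direction opposite to that of most called members of the set. The rises are 11.4% and 27.3% of the 44, against 3.54% and 7.23% of all tested genes. The falls are 2.27% and 9.09%, against 6.71% and 9.91%.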
